A study of Mus musculus with 2 samples.

Results

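Foxp3, the transcription factor that specifies regulatory T (Treg) cells, was examined together with the proteins it works with, the factors that switch it on and a pair of Treg surface genes, in Treg cells with and without the microRNA miR-125a. The 10 genes were Foxp3, its partners Runx1, Runx3, Cbfb, Ikzf2 and Ikzf4, the upstream factors Foxo1 and Foxo3, and the surface genes Gpr83 and Izumo1r. They were chosen by their known roles, but with the array signals of several of them already known from the same arrays, so their differences are given as a description and without a test. The platform annotation names 26 probe sets for these genes alone, of 34945 that name a single gene, and the 10 genes stand among 18193 measured in all. Of the 26 probe sets, 23 reached the minimum used below, a signal of 62.5 averaged over both arrays, which is the median of all probe sets. Each of the 10 genes had at least 1 such probe set.

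CD4+CD25hi cells were sorted from mouse spleens after magnetic enrichment of CD4+ T cells. The groups were miR-125a KO mice and their wild-type littermates, all 6 to 8 weeks old, with no other allele or agent named in the labels. RNA of different mice of a genotype was pooled in equal amounts, and each pool was read on 1 Affymetrix whole-genome mouse array, so that there were 2 arrays and no replicate. The labels do not give the number of mice in a pool, and no spread between mice can be computed. Nor do they say how miR-125a was deleted, or in which cells. The miR-125a KO sample is called the knockout pool below.

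In Treg cells Foxp3 acts as both an activator and a repressor, in large complexes with other DNA-binding proteins. Its transcription needs signals through the T cell receptor and the IL-2 receptor, and Foxo factors bind regulatory elements of the gene, as do complexes of a Runx protein with Cbfb. Loss of Foxp3 or of its partners is known to weaken suppression and to release cytokine genes.

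The missing microRNA is shown because its seed decides which transcripts it can pair with. The mature arms of mouse miR-125a are given from RefSeq (GRCm38.p6, chromosome 17, plus strand), with bases 2 to 8, the seed, in capitals.
mmu-miR-125a-5p: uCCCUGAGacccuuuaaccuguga
mmu-miR-125a-3p: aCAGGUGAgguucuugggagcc
Neither arm could be searched for in the transcripts of the 10 genes, since transcript sequences were not used here.

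RefSeq promoter windows, from 250 bases before to 50 after a transcription start, were matched by symbol for 8 of the 10 genes, with 11 windows in all. Ikzf2 and Ikzf4 had no match. The windows of Foxp3 are shown because it is the gene of the group that differed most between the pools. They lie at chrX:7579426-7579725 and chrX:7580233-7580532 (GRCm38.p6, plus strand), with start sites 807 bases apart. Capitals mark a TATA box, TATAAA, in the upstream window and a match to the STAT-type motif TTCNNNGAA in the downstream window.
Foxp3 upstream window: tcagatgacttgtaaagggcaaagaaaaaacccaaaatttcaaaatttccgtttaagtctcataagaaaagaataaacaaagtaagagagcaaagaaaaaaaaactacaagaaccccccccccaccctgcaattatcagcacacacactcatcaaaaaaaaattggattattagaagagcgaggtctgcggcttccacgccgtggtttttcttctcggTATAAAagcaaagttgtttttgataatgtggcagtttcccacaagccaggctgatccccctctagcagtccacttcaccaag
Foxp3 downstream window: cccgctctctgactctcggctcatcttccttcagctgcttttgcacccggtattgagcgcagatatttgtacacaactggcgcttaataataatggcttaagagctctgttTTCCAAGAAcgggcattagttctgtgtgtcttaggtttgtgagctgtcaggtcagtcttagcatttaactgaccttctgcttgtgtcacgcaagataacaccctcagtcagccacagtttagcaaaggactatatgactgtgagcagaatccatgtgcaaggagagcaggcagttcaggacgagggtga
The TATAAA match begins 32 bases before the start site, and TATAAA on either strand occurs in 13.6% of 32851 windows. The STAT-type match begins 139 bases before its start site, and this motif occurs in 8.30% of windows. Neither Foxp3 window holds the Runx core TGTGGT, which 16.8% of windows hold on either strand, or the forkhead motif TGTTTAC, which 3.65% hold. These letters say nothing of the sites these factors use elsewhere in the gene. Over the 11 windows, 3 hold the Runx core, 1 each of Runx1, Runx3 and Izumo1r, and 0 hold the forkhead motif.

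The Runx1 and Runx3 windows are shown because each holds the Runx core as a pair, on the strand opposite to the gene and with starts 8 bases apart, in capitals below. The Runx1 stretch is at chr16:92826025-92826054 (minus strand) and the Runx3 stretch at chr4:135120503-135120532 (plus strand), both in GRCm38.p6.
Runx1: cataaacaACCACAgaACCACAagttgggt
Runx3: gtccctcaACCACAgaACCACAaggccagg
The stretches share a run of 18 identical bases around the pair. The first core of the pair starts 28 bases after the start site in Runx1 and 134 bases before it in Runx3. Such a pair was found in 7 of the 32851 windows, or 0.0213%. These were the windows of Runx1, Runx2, Runx3 and Gm16225, the last of which overlaps that of Runx3, and 3 others. The pair was noticed after the windows had been searched.

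Foxp3 was lower in the knockout pool. Its signal was 1631 in the wild-type pool and 694 in the knockout pool, 42.6% of the wild-type value. Signals are linear MAS5 values, in which each array is scaled to a trimmed mean of 500.0. The log2 ratio, knockout over wild type after adding 16.3 to each signal, was -1.21, a 2.32-fold difference on that scale. Of the 19229 probe sets that name a single gene and passed the minimum, 0.62% had a lower ratio. The value rests on a single probe set, of a design that can match several transcripts of the gene, and no other probe set checks it.

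These arrays repeat a measurement only where several probe sets read a gene. From 5030 such genes, the SD of a log2 ratio between probe sets was computed in 10 groups of equal size by signal. It was 0.38 in the dimmest and 0.16 in the brightest group. This probe-set SD, 0.20 at the signal of Foxp3, leaves out variation between mice and any error the probe sets share, so it is not a replicate error. In RNA from a sorted population, a smaller share of Foxp3-expressing cells and less Foxp3 RNA per cell cannot be told apart.

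**Figure D1:**
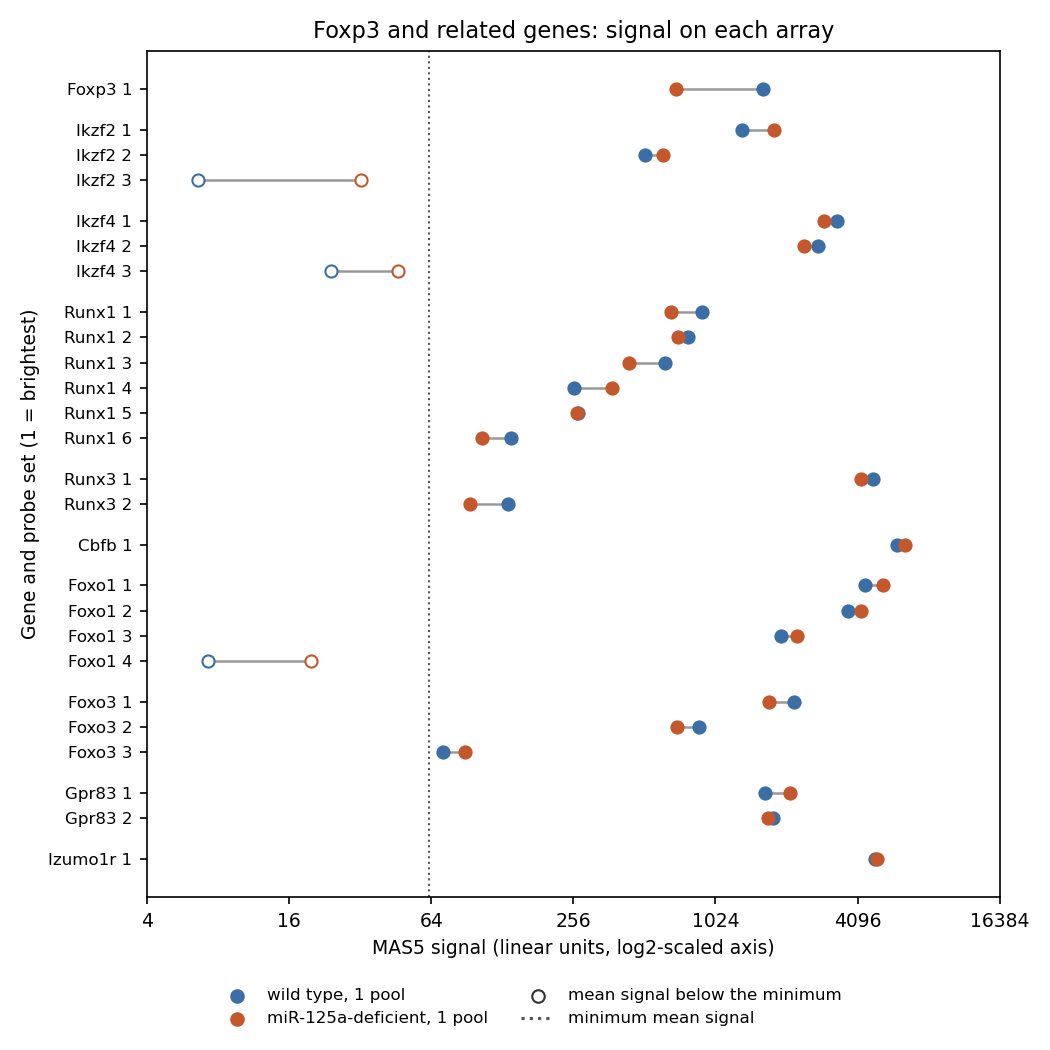
Signal of every probe set that names 1 of the 10 genes alone, in linear MAS5 units on a log2-scaled axis. Blue points are the wild-type and orange points the knockout pool, 1 array each, and open points have a mean signal below the minimum of 62.5, drawn as a dotted line. Foxp3 shows the widest gap of the probe sets past the minimum, from 1631 to 694.

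Foxp3 was the 1 gene of the 10 with a probe set past the minimum that was at least 2-fold lower, beside 1.38% of all probe sets tested. None of the 10 had one at least 2-fold higher, beside 1.03% of all probe sets. The shares are of probe sets, while the counts set beside them are of genes with any such probe set. Since the genes were also picked with these values in view, nothing is read from these shares. The 22 other probe sets past the minimum lay between -0.49 and 0.51 on the log2 scale. Of all 23, 10 were above 0, with a median of -0.07, beside 47.5% and a median of -0.02 over all probe sets tested.

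Runx1 binds DNA with Cbfb, joins Foxp3 in its complex and helps to keep the gene expressed. Its brightest probe set read 901 in the wild-type and 665 in the knockout pool, a log2 ratio of -0.43 (probe-set SD 0.24). The next read 786 and 707, with a ratio of -0.15, and the third 628 and 442, with -0.49. These 3 were lower in the knockout pool, and the brightest and the next were designed from the same source sequence.

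The dimmer probe sets of Runx1 went different ways. The fourth was higher in the knockout pool, reading 373 there and 257 in the wild type, a log2 ratio of 0.51 beside a probe-set SD of 0.32. The fifth read 266 against 268, a ratio of -0.01 whose sign turned in 3 of 5 other settings of scaling or pseudocount. The sixth read 106 against 140, with a ratio of -0.36. The fourth and the sixth were designed from the same source sequence, per the platform annotation, and had opposite signs. The mean over the 6 probe sets was -0.16, with ratios from -0.49 to 0.51. Among the 98 genes with 6 probe sets past the minimum, the median distance from the lowest to the highest ratio was 0.60, and 20.4% had all 6 on the same side of 0.

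Runx3, the Runx protein best known from CD8 T cells, can replace Runx1 beside Foxp3. Its bright probe set read 4771 in the wild-type and 4216 in the knockout pool, a log2 ratio of -0.18 (probe-set SD 0.16). The dim one read 135 and 93.6, with a ratio of -0.46 (probe-set SD 0.38). Both were lower in the knockout pool. Cbfb, the subunit that stabilises every Runx protein on DNA, was slightly higher instead, at 6521 against 6015. Its log2 ratio of 0.12 was smaller than the probe-set SD of 0.16.

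Ikzf2 and Ikzf4 encode Helios and Eos, zinc finger proteins of the Ikaros family. Helios is carried by most Treg cells of thymic origin, and Eos recruits the corepressor Ctbp1 to genes that Foxp3 silences. Ikzf2 read 1332 in the wild-type and 1821 in the knockout pool, a log2 ratio of 0.45 (probe-set SD 0.21). Its other probe set past the minimum read 517 and 616, with a ratio of 0.25 (probe-set SD 0.27). Both probe sets of Ikzf2 were higher in the pool in which Foxp3 was lower.

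Ikzf4 was slightly lower on both of its probe sets past the minimum. The brighter read 3338 in the wild-type and 2955 in the knockout pool, a log2 ratio of -0.17, and the other 2771 and 2433, a ratio of -0.19. The probe-set SD at these signals was 0.19. The difference in log2 ratio between the brightest probe sets of Ikzf2 and Ikzf4 was 0.62, with a probe-set SD of the difference of 0.28.

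Foxo1 and Foxo3 are forkhead factors that T cell receptor and growth factor signals push out of the nucleus through the kinase Akt, and both contribute to the induction of Foxp3. Foxo1 was higher in the knockout pool on its 3 probe sets past the minimum. They read 5267 against 4410, 4250 against 3736 and 2272 against 1944, with log2 ratios of 0.26, 0.19 and 0.22. The probe-set SDs were 0.16, 0.19 and 0.21. All 3 were designed from the same source sequence, so their closeness is no independent check. Of 1289 genes with 3 probe sets past the minimum, 47.9% had all 3 on the same side of 0.

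Foxo3 was lower on its brighter probe sets, which share a source sequence. The brightest read 1719 in the knockout and 2201 in the wild-type pool, a log2 ratio of -0.35 (probe-set SD 0.21), and the next 701 and 868, a ratio of -0.30 (probe-set SD 0.24). The third, close to the minimum, went the other way, at 89.1 against 72.0, with a ratio of 0.25 (probe-set SD 0.38). A further probe set, which names Foxo3 together with Gm38485 and stayed out of all counts, read 151 against 87.0. The log2 ratio of the brightest probe set of Foxo1 exceeded that of Foxo3 by 0.61, with a probe-set SD of the difference of 0.27.

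Gpr83, a G protein-coupled receptor enriched in Treg cells, had a pair of probe sets of similar signal that did not go the same way. The first read 2116 in the knockout and 1662 in the wild-type pool, a log2 ratio of 0.34, and the second 1702 and 1793, a ratio of -0.07. The probe-set SD was 0.21 for both. Izumo1r, also known as folate receptor 4, is carried by Treg cells and by anergic CD4 T cells. It read 4944 and 4848, a log2 ratio of 0.03 (probe-set SD 0.16) whose sign turned in 2 of 5 other settings. Its level was the closest between the pools of the 10 genes, taking the brightest probe set of each.

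**Figure D2:**
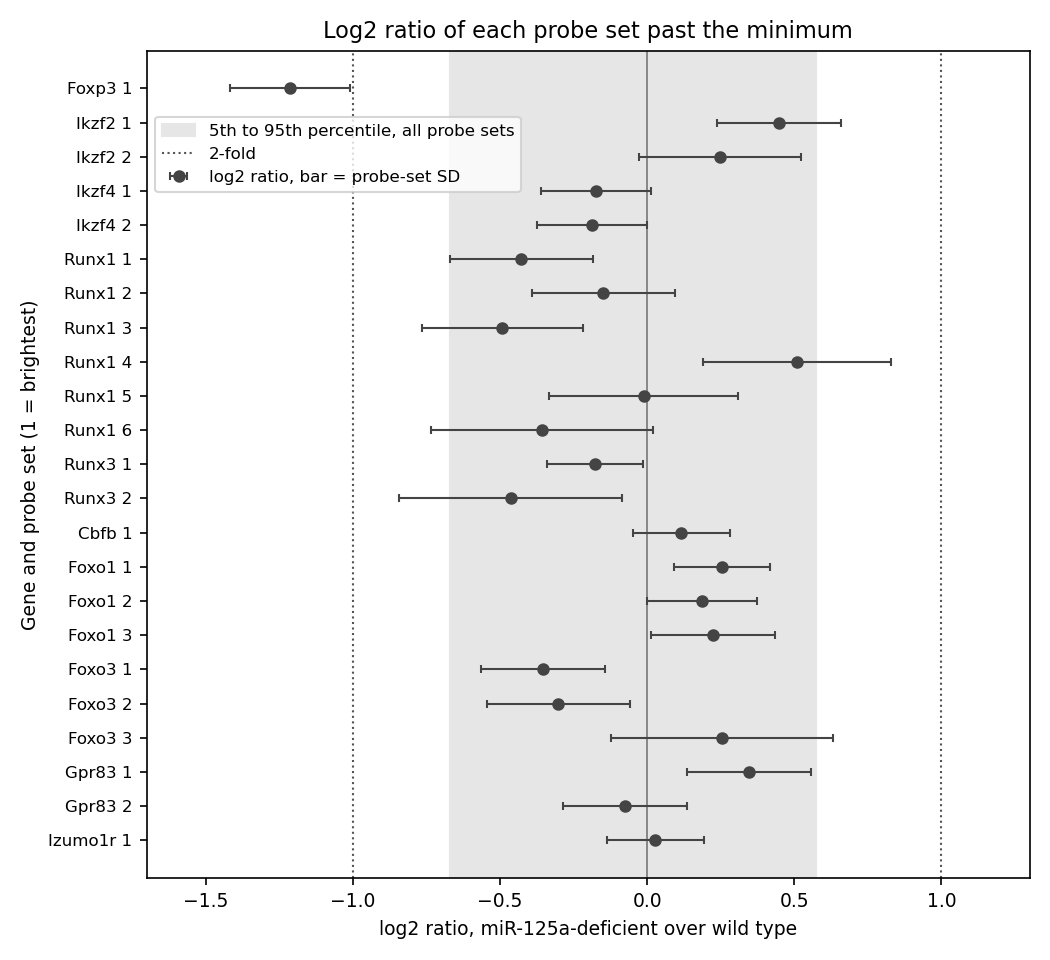
Log2 ratio of signal, knockout over wild type, for the 23 probe sets past the minimum, with bars for the probe-set SD at their signal, the 5th to 95th percentile of all tested probe sets in grey and dotted lines at 2-fold. Foxp3, at -1.21, lies outside the grey band, which runs from -0.67 to 0.57, and the other probe sets lie within it.

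The 3 probe sets below the minimum were all higher in the knockout pool. The third of Ikzf2 read 32.2 against 6.56, the third of Ikzf4 46.2 against 24.1 and the fourth of Foxo1 19.8 against 7.26. These signals are close to the background of the array, and no ratio is drawn from them. Among all 15716 probe sets below the minimum that name a single gene, 52.7% were above 0.

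**Figure D3:**
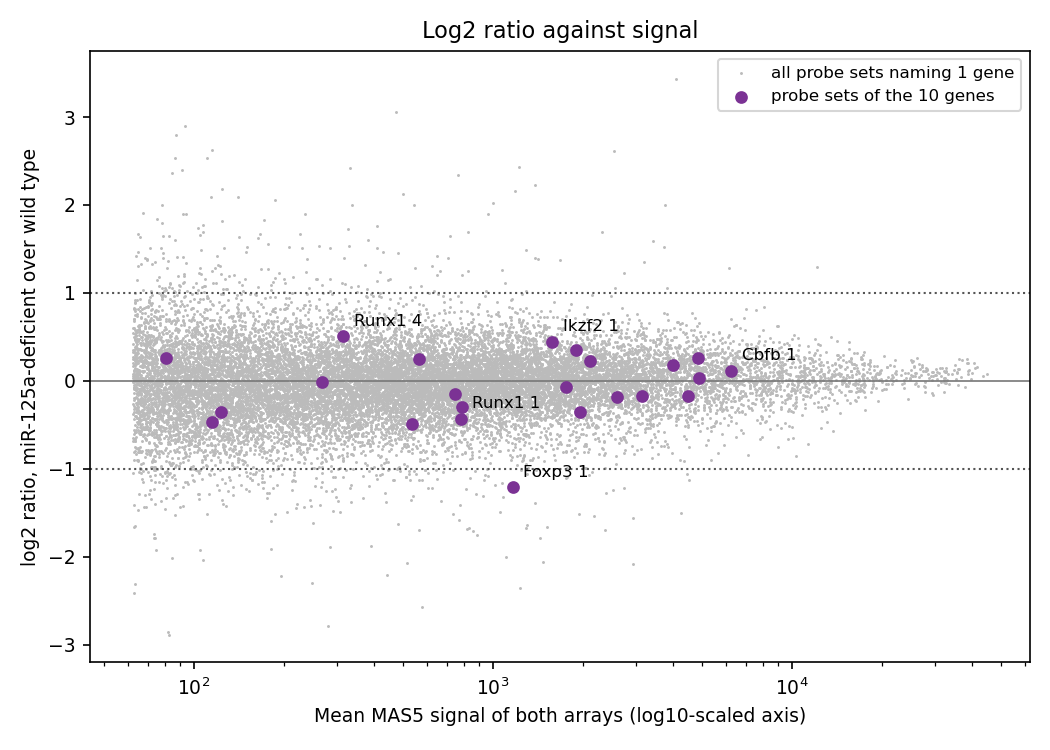
Log2 ratio against the mean signal of both arrays on a log10-scaled axis, for all 19229 probe sets tested in grey and the 23 of the 10 genes in purple, with dotted lines at 2-fold. The spread of the grey points narrows with signal, and of the purple points only Foxp3 lies beyond 2-fold.

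Genes from which Foxp3 receives its signals were read next. A gene was represented by its brightest probe set, and over the 10583 genes past the minimum 1.18% were at least 2-fold lower and 1.08% at least 2-fold higher, with a median log2 ratio of 0.01. The lists were written from general knowledge, with earlier results of these arrays known. Of 23 genes whose products act on Foxp3 transcription, 1 passed 2-fold upward and 0 downward, with a median of -0.15. The higher gene was Gata3, which directs type 2 helper cells and also binds the Foxp3 gene, at 2016 against 756 (log2 ratio 1.40). Satb1, a chromatin organiser, read 10316 against 5746, a ratio of 0.84. The lowest ratios were those of Tgfbr2, a TGF-beta receptor chain, and Nfatc1, which relays calcium signals. Tgfbr2 read 3875 against 5258, a ratio of -0.44, while its other probe set had -1.20. Nfatc1 read 1500 against 1976, a ratio of -0.39.

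DNA methylation at a conserved element of the Foxp3 gene is known to decide whether its expression is stable. Of 7 enzymes and readers of DNA methylation past the minimum, 0 reached 2-fold in either direction, and the median log2 ratio was -0.40. Tet1, Tet2, the methyltransferase Dnmt3a and the reader Mbd2 were lower, and Dnmt1 and Uhrf1 were higher. Tet2, which oxidises methylated cytosine, read 1204 in the knockout and 1912 in the wild-type pool, a ratio of -0.66. Tet1, from the same family, read 121 and 170, a ratio of -0.45. Dnmt3a, which methylates new sites, had -0.43, with other probe sets between -0.84 and 0.37, and Mbd2, which binds methylated DNA, had -0.40. Dnmt3a and Mbd2 were named after their values were seen. The maintenance methyltransferase Dnmt1 read 3445 and 2718, a ratio of 0.34, and Uhrf1, which brings Dnmt1 to replicating DNA, 2736 and 2045, a ratio of 0.42.

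By the brightest probe set of each gene, other proteins described in complexes with Foxp3 had similar signals in both pools. None (0) of 16 measured above the minimum passed 2-fold, and their median log2 ratio was -0.01, which was above 0, at 0.03, with equal medians of the arrays. Ctbp1, the corepressor of Eos, read 4419 in the knockout and 4003 in the wild-type pool, a ratio of 0.14, and was named after its value was seen. The lowest were Foxp1, a relative of Foxp3, at -0.40, and the deacetylase Hdac7, at -0.39. The highest were the deacetylase Hdac1, at 0.24, and Irf4, a factor of effector Treg cells, at 0.21. All 7 other probe sets of Foxp1 past the minimum were lower too, between -0.92 and -0.54. Of 10 enzymes that modify the Foxp3 protein, 0 reached 2-fold, from Pim2, a kinase, at -0.28 and Traf6, a ubiquitin ligase, at -0.25 to Stub1, another ligase, at 0.13 and the phosphatase Ppp1ca at 0.18.

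Genes known to be higher or held down in Foxp3+ cells were read next, and whether they respond to Foxp3 here was not tested. The first list holds 15 genes that are higher in Foxp3+ Treg cells than in other CD4 T cells. In the knockout pool 3 of them were lower by 2-fold or more, beside 1.18% of all genes. At least 2-fold higher were 0, beside 1.08%, and the median log2 ratio was -0.08. Gpr34, a lysophospholipid receptor, read 100.1 against 310, a ratio of -1.49 (probe-set SD 0.32). Fgl2, a secreted suppressive protein, read 179 against 489, a ratio of -1.37, and its other probe set had -1.05. Nt5e, which encodes the ectoenzyme CD73, read 2842 against 6222, a ratio of -1.13, with its other probe set at -1.19. The highest of these genes were the chemokine receptor Ccr8, at 0.40, and Il2ra, at 0.27.

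Of 13 genes that are held down in Foxp3+ cells, 4 were higher by 2-fold or more in the knockout pool, beside 1.08% of all genes. At least 2-fold lower were 0, beside 1.18%, and the median was 0.33. The 4 were the cytokines Il5, Il13, Il4 and Csf2, with log2 ratios of 3.06, 2.44, 2.35 and 2.12. Il5 read 860.1 against 88.6, Il13 2076 against 371, Il4 1283 against 239 and Csf2 826 against 177. With quantile or loess scaling, and with the mean over probe sets, 5 genes passed 2-fold. With the mean the fifth was Il21, at 1.38. Its brightest probe set had 0.73 and its other 2.02. Il17a had 0.96 in the main setting and at most 1.01 in the others. Il21 and Il17a were named after their values were seen. Il2, the cytokine gene best known to be silenced by Foxp3, was near the minimum, at 87.9 against 68.0. Ifng was bright in both pools, at 14457 against 11536, a ratio of 0.33. Il2 and Ifng were named after their values were seen. The lowest were Pde3b, a phosphodiesterase repressed by Foxp3, at -0.36, and the IL-7 receptor gene Il7r, at -0.24.

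**Figure D4:**
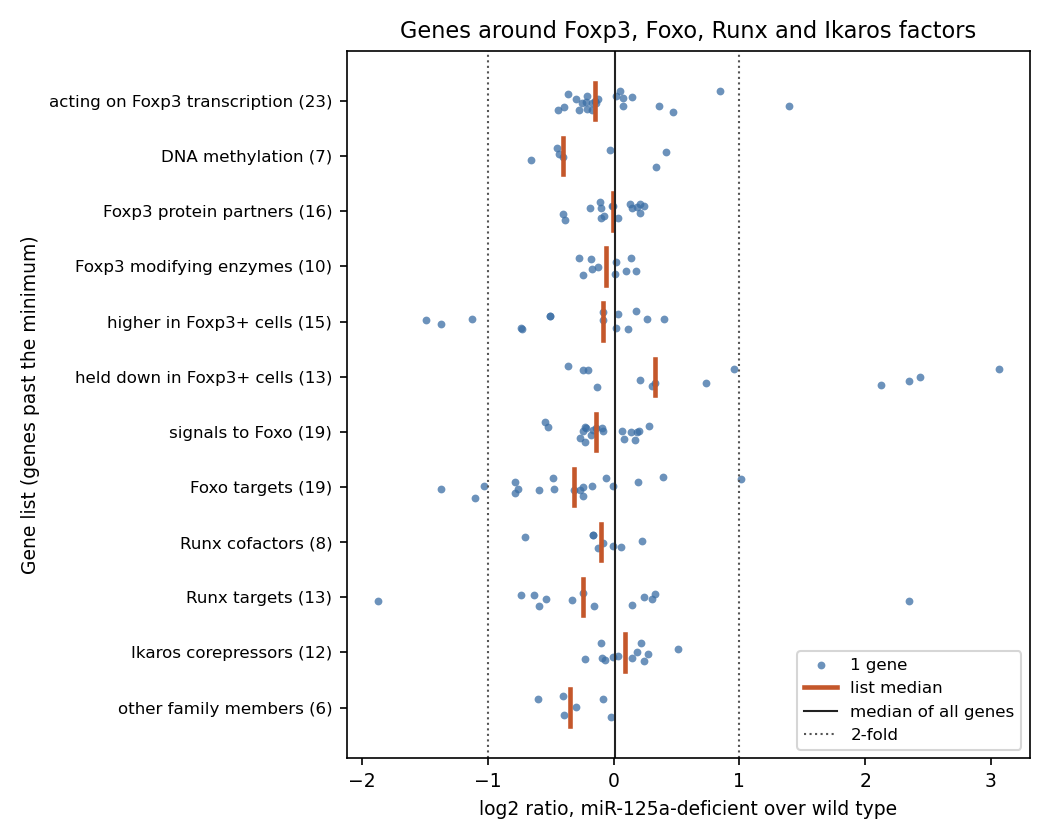
Log2 ratio, knockout over wild type, of each gene past the minimum in 12 lists, 1 point per gene by its brightest probe set, with the list median as an orange bar, the median of all genes as a black line and dotted lines at 2-fold. The number of genes is in brackets, and the points spread vertically at random. The Foxo targets lie mostly left of the black line, with a median of -0.31, and Il5, Il13, Il4 and Csf2, of the list held down in Foxp3+ cells, lie right of 2-fold.

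Targets of Foxo factors were mostly lower in the knockout pool, in which Foxo1 RNA was slightly higher and Foxo3 RNA slightly lower. Of 19 past the minimum, 16 had a log2 ratio below 0 and 3 above, with a median of -0.31, which ran from -0.32 to -0.28 over the other settings. Over all genes, 51.0% were above 0. At least 2-fold lower were 3, beside 1.18% of all genes, and 1 was at least 2-fold higher, beside 1.08%. Klf2, which keeps T cells quiescent and recirculating, read 366 against 971, a ratio of -1.37 (probe-set SD 0.24). Fbxo32, a ubiquitin ligase subunit, read 526 against 1147, a ratio of -1.10, with other probe sets at -0.74 and -0.44. Bcl2l11, which encodes the death factor Bim, read 316 against 662, a ratio of -1.03, and its 3 other probe sets lay between -1.12 and -0.43. The count of genes past 2-fold downward was 1 with the mean over probe sets, and 2 with each of the other scalings and with a pseudocount at the median signal.

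Not all Foxo targets were low. Gadd45a, a stress response gene, read 476 against 227, a ratio of 1.01, and it was under 2-fold with a pseudocount at the median signal. Irs2, an adaptor of insulin signalling, had a ratio of 0.20. Sesn3, an inhibitor of growth signalling, had 0.39, while its relative Sesn1 had -0.78. Ccr7, the lymph node homing receptor, had -0.00, at 15429 against 15481, with a sign that turned with equal medians of the arrays, where 4 of the 19 were above 0. S1pr1, which guides exit from lymphoid tissue, had -0.06. Irs2, Sesn1, Ccr7 and S1pr1 were named after their values were seen. The kinases and adaptors that move Foxo proteins were closer together, with 0 of 19 at 2-fold and a median of -0.14. Phlpp1, an Akt phosphatase, had the lowest ratio, -0.55, and Sgk1, a kinase that acts on Foxo factors, -0.52, at 8195 against 11758. Mtor and Akt1 had the highest, at 0.28 and 0.20, and the other probe set of Mtor had -0.22.

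Genes under Runx control went both ways. Of 13 past the minimum, 1 passed 2-fold downward and 1 upward, beside 1.18% and 1.08% of all genes. Their median log2 ratio was -0.24. Prf1, which encodes perforin, had a ratio of -1.88 on a probe set that can match several transcripts, its only one, and Il4, which Runx3 silences in type 1 cells, 2.35. Itgae, the integrin chain CD103, read 3878 against 6460, a ratio of -0.73, with its other probe set at -0.64. Of 8 cofactors of Runx proteins 0 reached 2-fold, with Tle4, a Groucho corepressor, lowest at -0.71, Kat6a, an acetyltransferase, at -0.16, Cbfa2t2 at 0.06 and the kinase Hipk2 highest at 0.22. Their median was -0.10.

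Corepressors used by Ikaros proteins had a median of 0.09 over 12 genes, and 0 reached 2-fold. Hdac2, a deacetylase, was highest at 0.52, followed by Mta2 of the NuRD complex at 0.27, while Mta1 and Chd4 of that complex were lowest at -0.23 and -0.10. Of 6 other genes of the same families past the minimum, 0 reached 2-fold and all 6 had a ratio below 0. Over all genes, 51.0% were above 0. The median of the 6 was -0.35. Foxo4 had -0.60 near the minimum, at 102 against 163, and Foxp1 -0.40. Ikzf3, which encodes Aiolos, had -0.08 and Ikzf1, which encodes Ikaros, -0.02, the last with a sign that turned in 1 of 3 other scalings.

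The genes with signals most like those of Foxp3 on both arrays were found by the distance of the pair of log2 signals, over 2 arrays only. The 5 nearest were Xdh, Lztr1, Atp1b1, Prdx4 and H2ac19, at distances of 0.16, 0.21, 0.22, 0.23 and 0.23. Xdh, which encodes xanthine dehydrogenase, read 654 against 1482, a log2 ratio of -1.16. Atp1b1, a subunit of the sodium pump, had a ratio of -0.96, and its 3 other probe sets a mean of -1.16. H2ac19, a histone gene, had -0.90, and its other probe set -0.71. The other probe set of Lztr1 had a ratio of -0.03, and the 2 others of Prdx4 a mean of -0.23, so their likeness to Foxp3 held for the nearest probe set alone.

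The cells carried the markers of CD4+CD25hi T cells in both pools. All 7 measured T cell markers passed the minimum, summing to 70047 (wild type) and 71760 (knockout). Cd4 read 715 and 641, and Il2ra, which encodes the CD25 used for the sort, 15390 and 18551. Of the 7, only 2 had a log2 ratio above 0, Il2ra at 0.27 and Cd3g at 0.01. The median was -0.05, and Cd3e was lowest, at -0.41. For other cells, signals were summed over all measured markers, also those below the minimum. These sums were lower in the knockout pool in 5 of 6 lists, all but the erythroid one. The 5 include the neutrophil list, in which 0 markers passed the minimum. For CD8 T and NK cells, 7 of 8 passed the minimum, with summed signals of 33272 against 38735. Most of both sums was Gzma, at 26704 against 29096. The NK receptor genes Klra7, at 193 against 94.3, and Klre1, at 163 against 104, were higher. Klrd1, a brighter NK receptor gene, was lower, at 5065 against 7919, as were Cd8a, Cd8b1 and Eomes. Below the minimum, Ncr1 was higher. For B cells 3 of 8 passed, with 2138 against 3800 over all 8, most of it Ighm. Below the minimum, Cd79a, Pax5 and Cr2 were higher in the knockout pool, and Ms4a1 and Blnk were lower. For macrophages, monocytes and dendritic cells 4 of 12 passed, with 561 against 812 over all 12. The 4 that passed were all lower, among them Fcer1g, an Fc receptor chain, at 103 against 226, a log2 ratio of -1.02. Below the minimum, Lyz2, Tyrobp, Ly86, Itgam and Siglech were higher, and Adgre1, Cd14 and Spi1 were lower. For mast cells and basophils 3 of 6 passed, with 645 against 1066. Kit, the stem cell factor receptor, read 285 against 643, a ratio of -1.13. Cpa3 had -0.49, while Fcer1a was nearly level, at 176 against 180, a ratio of -0.03. Below the minimum, Ms4a2 was higher, and Mcpt8 and Cd200r3 were lower. Of 7 neutrophil markers 0 passed, with 107 against 249, and of 3 erythroid markers 1 did, with 87.2 against 75.8. None of these markers was at the lowest value of the array. The part of other cells in the Foxp3 difference was not tested.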

How the data were processed

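RNA of sorted Treg cells was read on 2 arrays, 1 pool per genotype. The authors deposited log2 values for 45101 probe sets, made with MAS5 per the submitters' processing notes, with no version given. As linear signals, both arrays have a trimmed mean of 500.0 (2% cut at either end). The depositors' settings for background and detection are not given in the sources used here. MAS5 subtracts mismatch signal, so that dim values vary widely. The lowest deposited log2 value, 0, occurs at 552 probe sets (wild type) and 473 (knockout). The number of arrays limits the precision.

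Probe sets were named from the platform annotation. The counts use neither the 932 that name several genes nor 9224 that are unnamed or controls. The log2 ratio was computed after adding 16.3, the 25th percentile of all signals, and understates the change of dim genes. With 1 sample per genotype no test was made, and genes were counted at 2-fold. Each probe set of the 10 genes was kept separate. The 12 gene lists, the 7 marker lists and the members were chosen with earlier results of these data known. The rule for named genes took the members, the highest 2 and lowest 2 genes of each gene list, its genes at 2-fold, and the 5 genes nearest to Foxp3. Single marker genes and those so described in the text were named after their values were seen. Other scalings, pseudocounts, minimums, folds and probe-set rules were tried. The code was tested on simulated data. Python 3.11.15, numpy 2.4.6, pandas 2.3.3, scipy 1.17.1 and statsmodels 0.14.6 were used. Sequences are RefSeq's.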

Additional observations from a re-analysis of the deposited data

How the results depend on the processing

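The Foxp3 log2 ratio stayed between -1.23 and -1.16 under 3 other scalings and pseudocounts of 1 and of the median signal. Foxp3 was the 1 gene of the group counted as lower in 10 of the 12 alternative settings run for this count. Several of these could not change its call, since it has 1 probe set, which passed the minimum. They are the brightest probe set, the mean over probe sets, no minimum and the looser fold of 1.5. The count was 0 when probe sets able to match several transcripts were left out, since Foxp3 has no other probe set, and 0 at a fold of 3. At a fold of 1.5 it was still 1. The count at least 2-fold higher was 0 in the main setting and 1 with no minimum, where the dim probe set of Ikzf2 passed. Of the 22 other probe sets past the minimum, 2 changed sign in some settings, those of Runx1 and Izumo1r named above, and 0 moved by more than the probe-set SD. The list medians were also computed in 7 other settings added after seeing the data. With probe sets able to match several transcripts left out, the median of the genes higher in Foxp3+ cells was -0.24 in place of -0.08, that of enzymes acting on the Foxp3 protein -0.18 in place of -0.06, and Prf1 dropped out of the Runx targets, leaving 0 at least 2-fold lower. The median of Runx cofactors was -0.00 with the mean over probe sets, in place of -0.10. No paired analysis was possible because each genotype has 1 pooled sample.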
